A study of Mus musculus with 10 samples.

Results

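The genes described here are glycosyltransferases of the Golgi apparatus: the Galnt enzymes that start mucin-type O-glycans, the sialyltransferases (St3gal, St6gal, St6galnac and St8sia), the beta-1,4-galactosyltransferases B4galt1 to B4galt6, the Fut fucosyltransferases and the Mgat enzymes of N-glycans. They were chosen by gene symbol alone, as protein-coding Ensembl identifiers of these names, which gave 64 of the 54838 identifiers counted and of the 21998 that are protein-coding. The study compared ribosome-bound RNA of the dorsal and the ventral hippocampus in MC-TRAP mice (genotype Drd2-Cre;Eef1a1LSL.eGFPL10a/+, strain C57BL/6, about 10 weeks old). In these animals Drd2-Cre switches on an EGFP-tagged ribosomal protein, L10a, so that ribosomes of Drd2-expressing cells, many of them hilar mossy cells of the dentate gyrus, can be precipitated (TRAP, translating ribosome affinity purification). Both groups carried the same alleles and received no treatment, and each had 5 libraries, each from the pooled tissue of 5 mice, and the p-values therefore measure the spread between pools of mice. Both groups came from the same set of animals, whose hippocampi were each cut into a dorsal and a ventral piece, and which dorsal pool shares its mice with which ventral pool is not given in the sources used here. Drd2-Cre is also active in other hippocampal neurons, and a precipitate holds some RNA of cells without the tag.

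Glycosyltransferases add 1 sugar at a time to a growing chain. Galnt enzymes attach N-acetylgalactosamine (GalNAc) to serine or threonine, Mgat enzymes build the antennae of N-glycans, and B4galt enzymes add galactose, on which sialic acid can then be placed. In the brain much of the sialic acid sits on gangliosides, which are sialylated glycolipids of the neuronal membrane, and a smaller part forms polysialic acid on the adhesion molecule NCAM. A transcript level does not give the activity of an enzyme, which was not measured.

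Promoter windows, from 250 bases before to 50 bases after a gene's start, were available from RefSeq (GRCm38.p6) for 45 of the 63 different member symbols. Those of St8sia6 and Galnt11 are shown because these members differed most firmly between the groups, and that of Galnt13 because it had the highest dorsal CPM among the Galnt genes. Capitals mark the GC box (GGGCGG, or CCGCCC on the other strand) and the cyclic AMP response element (TGACGTCA, the same on both strands), and in Galnt11 a GC box is directly followed by that element. The windows are chr2:13793471-13793770 on the minus strand, chr5:25222622-25222921 on the plus strand, the outermost of 2 starts listed, and chr2:54436137-54436436 on the plus strand.
St8sia6: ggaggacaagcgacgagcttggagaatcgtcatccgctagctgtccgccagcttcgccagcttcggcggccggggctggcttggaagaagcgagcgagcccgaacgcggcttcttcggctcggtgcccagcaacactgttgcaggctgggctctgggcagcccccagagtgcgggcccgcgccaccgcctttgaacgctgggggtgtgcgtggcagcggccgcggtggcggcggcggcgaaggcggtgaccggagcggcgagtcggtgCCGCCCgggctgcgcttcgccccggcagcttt
Galnt11: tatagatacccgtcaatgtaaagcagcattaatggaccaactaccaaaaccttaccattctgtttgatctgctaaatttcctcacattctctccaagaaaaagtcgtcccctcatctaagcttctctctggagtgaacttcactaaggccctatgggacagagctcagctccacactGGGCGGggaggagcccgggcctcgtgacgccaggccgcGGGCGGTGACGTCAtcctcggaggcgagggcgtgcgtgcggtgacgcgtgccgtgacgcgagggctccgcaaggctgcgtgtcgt
Galnt13: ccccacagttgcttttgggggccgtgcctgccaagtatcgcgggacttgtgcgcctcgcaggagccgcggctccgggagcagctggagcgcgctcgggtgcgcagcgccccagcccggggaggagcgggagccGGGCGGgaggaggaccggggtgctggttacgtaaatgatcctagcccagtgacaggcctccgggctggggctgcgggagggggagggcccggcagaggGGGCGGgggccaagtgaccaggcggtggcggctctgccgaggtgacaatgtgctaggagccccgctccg

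Of all 32851 windows in the table, 35.7% hold the GC box and 1.79% the response element. The TATA box (TATAAA or TTTATA), the E box (CACGTG) and the CCAAT box (CCAAT or ATTGG) were also searched on both strands, and are in 13.6%, 7.15% and 37.4% of all windows and in none of the 3 shown. Among the 63 member windows the GC box was found in 36 and the response element in 2. These matches describe letters only.

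The libraries held between 11138676 and 20594364 counts on genes, at which depths 3 counts correspond to 0.146 to 0.269 CPM (counts relative to the scaled library size). This limit covers counting error alone. Read pairs that fell on no gene made up 21.8% to 33.9% of dorsal and 11.6% to 19.3% of ventral libraries, without overlap (exact permutation test, two-sided p = 0.00794). The mRNAs of the mitochondrial genome summed to 2768 to 3517 CPM on the dorsal side and 446 to 1254 CPM on the ventral side. The summed markers of oligodendrocytes were 2524 to 3001 CPM in the dorsal pools and 954 to 1834 CPM in the ventral pools, with 10 of 10 markers higher on the dorsal side and 4 called. Those of astrocytes were 1976 to 2245 and 855 to 1454 CPM, with 6 of 8 higher and 4 called, whereas Aldh1l1 was called ventral-enriched, at 1.17 and 4.15 CPM, and Aldoc was lower in the dorsal group by adjusted p alone. No marker of either list was at 0 in both groups. Interneuron markers ran the other way, at 3355 to 4479 CPM in the dorsal group and 4103 to 5346 CPM in the ventral group, with 9 of 9 lower in the dorsal group, 6 of them by adjusted p and 3 called. The summed ranges of the groups overlapped, and Gad2, Slc32a1 and Vip did not pass the test. Of the 12 mossy cell markers 10 could be tested, with Gria2 and Gria3 called dorsal-enriched and Calb2, Satb1 and Ap2s1 called ventral-enriched. Drd2 had 28.1 and 20.7 CPM and Calb2 65.0 and 615 CPM, while Csf2rb2 and Glipr1 stayed below 1 CPM on average. Of 7 granule cell markers Prox1 and Lct were called dorsal-enriched, and of 8 pyramidal cell markers Bok was called dorsal-enriched and Mpped1 ventral-enriched. Of 8 microglial markers C1qa was called dorsal-enriched, and of 6 endothelial markers none was called. The part that these library properties and other cell types have in the results below was not tested, except where a value is given. In bulk precipitates a smaller number of cells of a type cannot be told apart from less RNA per cell.

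The highest levels belonged to enzymes of gangliosides. Per kilobase of exon, so that genes can be compared, St3gal5, the GM3 synthase that places the first sialic acid on lactosylceramide, led with a mean of 113 CPM per kilobase in dorsal and 105 in ventral libraries. St6galnac5, which sialylates gangliosides further, followed with 69.1 and 70.6, and B4galt6, a lactosylceramide synthase, with 42.2 and 36.1. St8sia3, a brain alpha-2,8-sialyltransferase, had 39.5 and 32.7, and St8sia1, the GD3 synthase, had 21.7 and 15.5. Fut9, which makes the Lewis x structure, and Mgat3, which adds the bisecting N-acetylglucosamine of N-glycans, came next with 17.8 and 16.6 and with 20.3 and 14.1 CPM per kilobase. A single gene held most of several families: St3gal5 made up 85.1 ± 1.78% of the summed St3gal level of the dorsal group and 86.7 ± 2.31% of that of the ventral group (SD, n = 5), and St6galnac5 made up 80.1 ± 6.28% and 82.0 ± 2.87% of the St6galnac level. The Galnt family had no such leader, since its top member, Galnt18, held 15.4 ± 1.02% and 13.1 ± 2.66%.

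**Figure D1:**
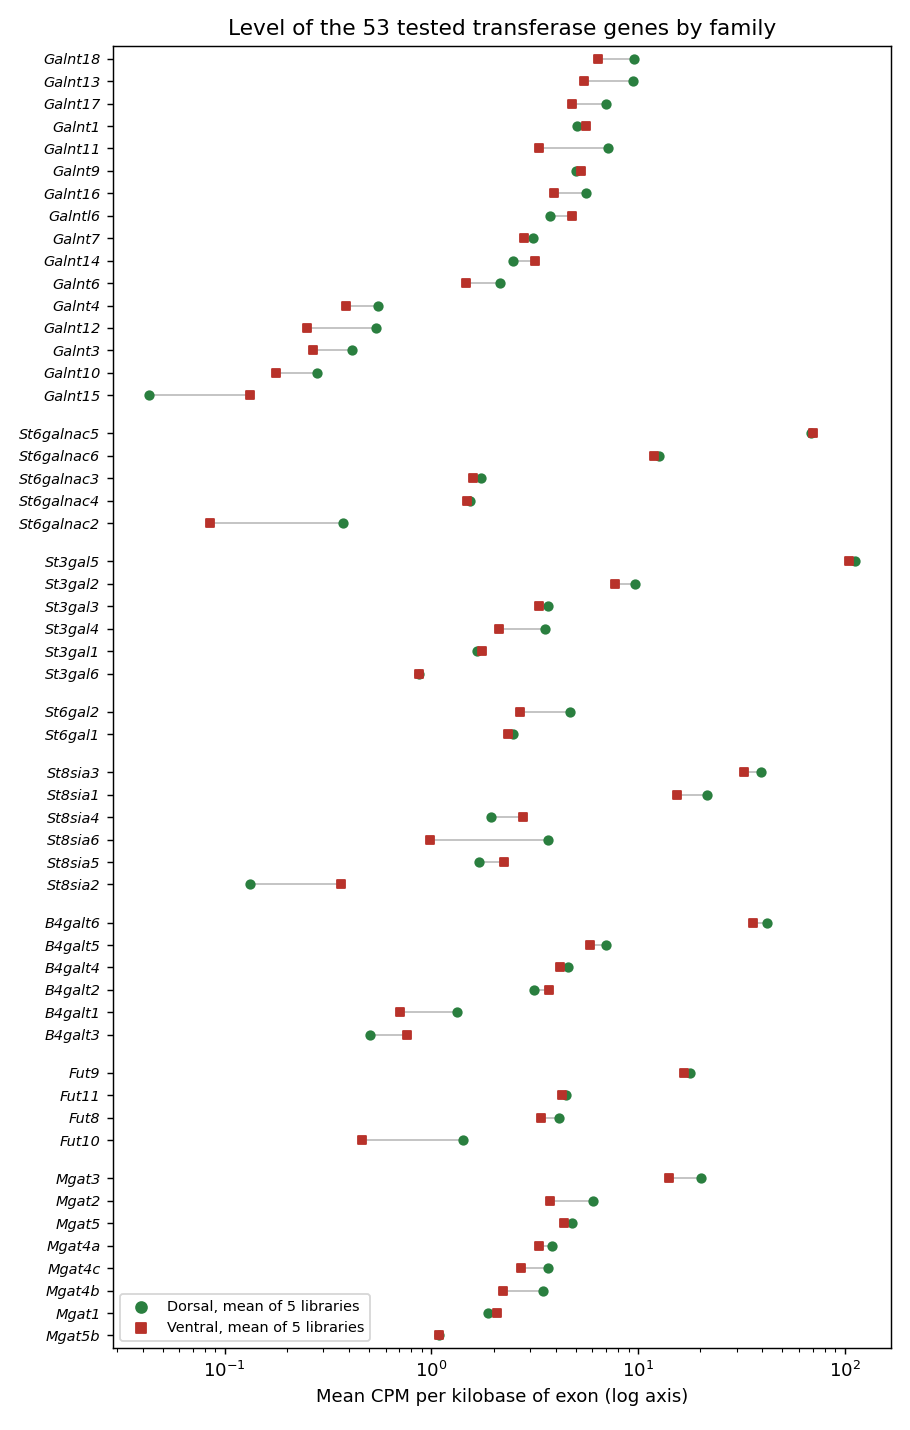
Mean level of each tested member in CPM per kilobase of exon on a log axis, with members grouped by family, circles for the 5 dorsal libraries and squares for the 5 ventral libraries. St3gal5 and St6galnac5 lie to the far right of their families at nearly the same level in both groups, whereas St8sia6, Fut10 and St6galnac2 show wide gaps between circle and square.

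To pass the filter of CPM above 1 in at least 2 libraries, a gene had to be detected in either group, and 53 of the 64 members did. A gene was called when its adjusted p was under 0.05 and its mean CPM, with 1 added, differed by more than 0.58 on the log2 scale. By this rule 8 members were called dorsal-enriched and 1 ventral-enriched. In percent of those tested this was 15.1% and 1.89%, beside 15.7% and 9.85% of all 16806 genes tested and 11.4% and 10.3% of the 13549 tested protein-coding genes. By adjusted p alone 15 members were higher in dorsal and 2 in ventral libraries, or 28.3% and 3.77%, where 15.4% and 16.1% of protein-coding genes were. The 5 dorsal libraries lay above the 5 ventral ones without overlap for 7 members and below them for none, beside 8.5% and 9.58% of protein-coding genes. The median log2 fold change was 0.18 over the tested members and -0.04 over the tested protein-coding genes. Among the latter it rose with exonic length. It was -0.31 up to 2 kilobases, -0.16 from 2 to 4, -0.03 from 4 to 6, 0.04 from 6 to 8 and 0.16 above 8 kilobases. The part that exonic length has in the median of the members was not tested. With an alternative estimate of the dispersions, that of edgeR 3, the calls were 6 dorsal and 0 ventral members, without St6galnac2, Fut10 and St8sia2. In that fit 2217 dorsal and 1408 ventral genes were called of all 16806 tested, fewer than in the main fit.

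**Figure D2:**
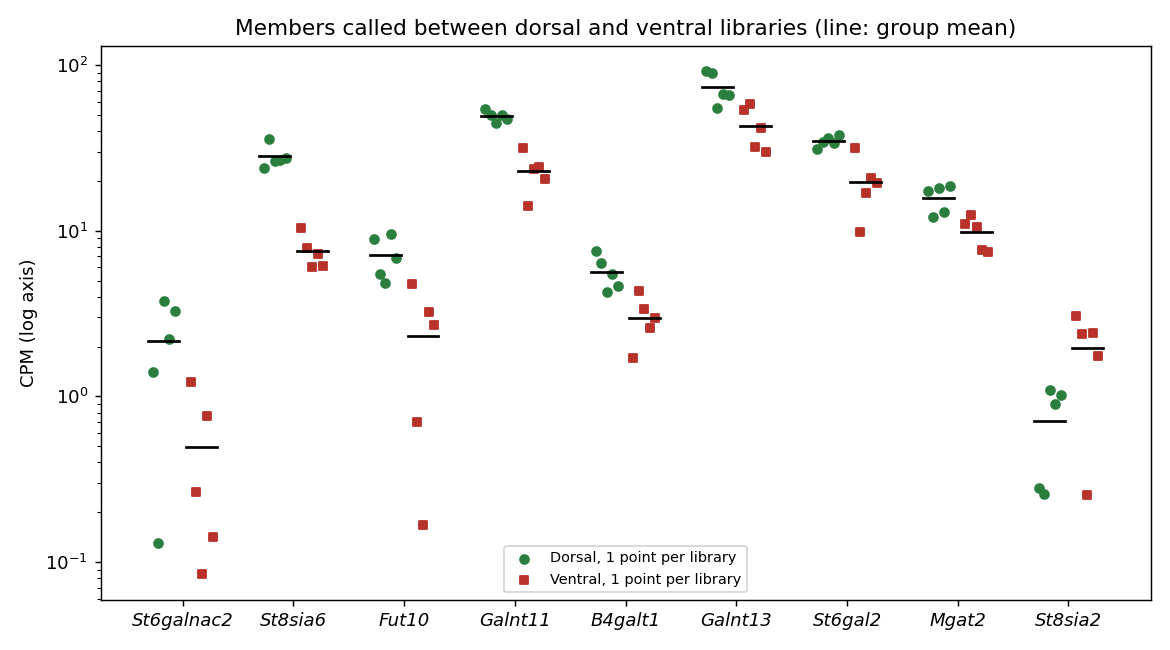
CPM on a log axis in each dorsal (circles) and ventral (squares) library for the 9 members called in either direction, with a line at the mean of 5 libraries. The groups are separate for St8sia6, Galnt11 and Fut10, and they overlap in the other 6.

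Galnt enzymes start the O-glycan chain, and 2 of the 16 tested were called, both dorsal-enriched. This is 12.5%, beside 11.4% of the tested protein-coding genes. Galnt11 (chr5:25221904-25265918, plus strand of GRCm38), which also acts on proteins of the LDL receptor family, had 53.9, 49.7, 44.7, 49.8 and 47.1 CPM in dorsal libraries 1 to 5 and 31.7, 14.1, 23.4, 24.4 and 20.6 CPM in ventral libraries 1 to 5. Values of other genes are given in the same order of libraries. The dorsal libraries were close to each other and all lay above the highest ventral one. Group means were 49.0 ± 3.44 and 22.8 ± 6.40 CPM (SD, n = 5), a log2 fold change of 1.08 with a standard error of 0.17 and an adjusted p of 0.000503. It was called in each of 24 alternative analyses.

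Galnt13 (chr2:54436317-55118309, plus strand) is an enzyme of the same kind found mainly in neural tissue. Its values were 91.8, 89.3, 55, 67.0 and 65.5 CPM in the dorsal and 53.3, 57.9, 32.0, 41.9 and 30.0 CPM in the ventral libraries. Ventral library 2 exceeded dorsal library 3, and the other dorsal libraries lay above every ventral one. The means of 73.7 ± 16.1 and 43.0 ± 12.4 CPM gave a log2 fold change of 0.78 (SE 0.20, adjusted p = 0.00922). Correcting for the GC content of each gene's longest transcript and for exonic length took this to 0.04 (adjusted p = 0.896). The same correction fitted among protein-coding genes alone took it to 0.54 (adjusted p = 0.0348), below the fold threshold. The longest transcript of Galnt13 has a GC content of 37.5%. Tested genes of other biotypes at 40% GC or less had a median log2 fold change of 1.82, while protein-coding genes in that range had 0.08. In the whole series the same correction moved the dorsal share of called genes from 61.4% to 44.6%, or to 48.7% when fitted among protein-coding genes.

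Galnt16 and Galnt17 were separate between the groups without reaching the fold threshold. Galnt16 had 39.3, 48.3, 49.6, 43.1 and 44.8 CPM on the dorsal side and 17.2, 36.1, 38.3, 31.7 and 34.4 CPM on the ventral side, a log2 fold change of 0.53 (SE 0.18, adjusted p = 0.036). Galnt17 had 58.1, 71.6, 74.1, 62.5 and 61.6 against 34.7, 38.3, 51.7, 44.2 and 57.3 CPM (0.53, SE 0.15, adjusted p = 0.0138). In both the lowest dorsal library lay just above the highest ventral one.

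Galnt18, the Galnt gene with the highest level per kilobase, had 22.1, 25.0, 24.3, 26.4 and 26.0 CPM in the dorsal pools and 12.6, 24.2, 17.4, 13.5 and 14.9 CPM in the ventral pools. Ventral library 2 reached the dorsal range and the other 4 stayed below it. Its log2 fold change was 0.63 (SE 0.18, adjusted p = 0.0163), with a log2 ratio of means of 0.55 that fell short of the threshold. It was called dorsal-enriched in 7 of 24 alternatives, among them each one with the GC and length correction. Over the whole family 11 of 16 tested members were higher in the dorsal group, 5 of them by adjusted p, and none was lower by adjusted p. By adjusted p this is 31.25% and 0%, beside 15.4% and 16.1% of the tested protein-coding genes. The lowest log2 fold change, -1.57, belonged to Galnt15, at under 1 CPM on average in both groups. The summed Galnt level was 59.7 to 67.1 CPM per kilobase in dorsal and 44.9 to 53.2 in ventral libraries. The summed Mgat level was also separate, at 39.4 to 49.1 and 30.4 to 37.1, whereas the sums of the other families overlapped. That of St8sia overlapped only barely, at 59.68 to 77.99 in dorsal and 50.43 to 59.75 in ventral libraries.

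Among the sialyltransferases, 3 of 19 tested were called dorsal-enriched and 1 ventral-enriched. This is 15.8% and 5.26%, beside 11.4% and 10.3% of the tested protein-coding genes. St8sia6 (chr2:13651021-13794064, minus strand), which adds a second sialic acid in alpha-2,8 linkage, mainly on O-glycans, had 23.8, 36.0, 26.3, 26.8 and 27.4 CPM in dorsal libraries. In ventral libraries it had 10.4, 7.82, 6.07, 7.26 and 6.13 CPM. The lowest dorsal value was more than double any ventral one. With means of 28.1 ± 4.65 and 7.54 ± 1.77 CPM it was 3.72-fold higher in the dorsal group (log2 fold change 1.90, SE 0.19, adjusted p = 2.86e-05), and it was called in all 24 alternatives.

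The polysialyltransferases St8sia2 and St8sia4, which build polysialic acid on NCAM, were the 2 members lower in dorsal libraries by adjusted p. St8sia2 was near the limit of detection, with 0.282, 0.259, 1.09, 0.899 and 1.02 CPM in the dorsal group and 3.05, 2.37, 0.253, 2.40 and 1.74 CPM in the ventral group, or 3 to 55 read pairs per library. Ventral library 3 was as low as the lowest dorsal ones. Its log2 fold change of -1.48 (SE 0.52, adjusted p = 0.0392) no longer passed the test in 13 of 24 alternatives, among them 8 of the 10 analyses without 1 library, the one with DESeq2 (adjusted p = 0.0976) and the one with the replicate block (adjusted p = 0.0891). St8sia4 was more abundant, at 38.9 ± 7.55 CPM on the dorsal side and 56.0 ± 11.3 CPM on the ventral side (-0.52, SE 0.17, adjusted p = 0.03). It stayed under the fold threshold here and passed it with the GC and length correction, at -1.59, or -0.99 among protein-coding genes. The longest transcript of St8sia4 has a GC content of 36.1%, and its exons span 20.1 kilobases. Whether the correction suits such a gene was not tested.

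St8sia3 carried most of the St8sia level. It had 479, 489, 427, 460 and 455 CPM in the dorsal pools and 400, 367, 421, 359 and 366 CPM in the ventral pools, separate groups that differed by only 0.27 on the log2 scale (SE 0.08, adjusted p = 0.0228). St8sia1, higher in dorsal libraries by 0.48 (SE 0.13, adjusted p = 0.0136), also stayed below the fold threshold. St8sia5, with means of 9.26 and 12.2 CPM, did not pass the test (adjusted p = 0.176).

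St6galnac2, which sialylates the GalNAc of O-glycans, had the highest log2 fold change of the tested members, on few counts. It had 1.41, 0.130, 3.74, 2.22 and 3.29 CPM in the dorsal group and 1.22, 0.264, 0.0843, 0.758 and 0.141 CPM in the ventral group, and between 1 and 55 read pairs in a library. Dorsal library 2 lay among the lowest ventral ones. It exceeded 1 CPM in dorsal libraries 1, 3, 4 and 5 but in ventral library 1 alone, so that St6galnac2 passed the filter only through the dorsal group. The log2 fold change was 2.02 (SE 0.67, adjusted p = 0.0286), and the call was lost in 6 of the 10 analyses without 1 library, with adjusted p up to 0.0933. Of its exons 15.2% overlap other annotated genes, and a second identifier with the same symbol was at 0 in all 10 libraries.

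St6galnac5, the most abundant of that family, had 535, 415, 281, 456 and 386 CPM on the dorsal side and 424, 276, 577, 392 and 450 CPM on the ventral side, ranges that overlap almost completely. Its log2 fold change was -0.03, with a 95% interval from -0.39 to 0.33. St6gal2, which caps galactose with alpha-2,6-linked sialic acid, had 31.3, 34.2, 36.1, 34.0 and 38 CPM in the dorsal pools and 31.7, 9.84, 16.8, 20.8 and 19.4 CPM in the ventral pools. Ventral library 1 reached the dorsal range, and the other 4 were well below it. It was called at 0.78 (SE 0.21, adjusted p = 0.014), whereas its paralogue St6gal1 had 12.3 and 11.6 CPM (adjusted p = 0.784). The difference between these paralogues was not tested.

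None of the 6 St3gal genes, which add alpha-2,3-linked sialic acid, was called. St3gal5 had 282, 230, 276, 365 and 320 CPM in the dorsal group and 209, 290, 362, 248 and 266 CPM in the ventral group, with overlap and a log2 fold change of 0.10 (95% interval -0.19 to 0.39). St3gal2, which sialylates complex gangliosides, had 46.2, 49.2, 49.7, 52.5 and 46.4 CPM on the dorsal side and 37.3, 39.5, 42.5, 38 and 37.9 CPM on the ventral side. These groups were tight and separate, and the difference was small, at 0.33 (SE 0.11, adjusted p = 0.0305).

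**Figure D3:**
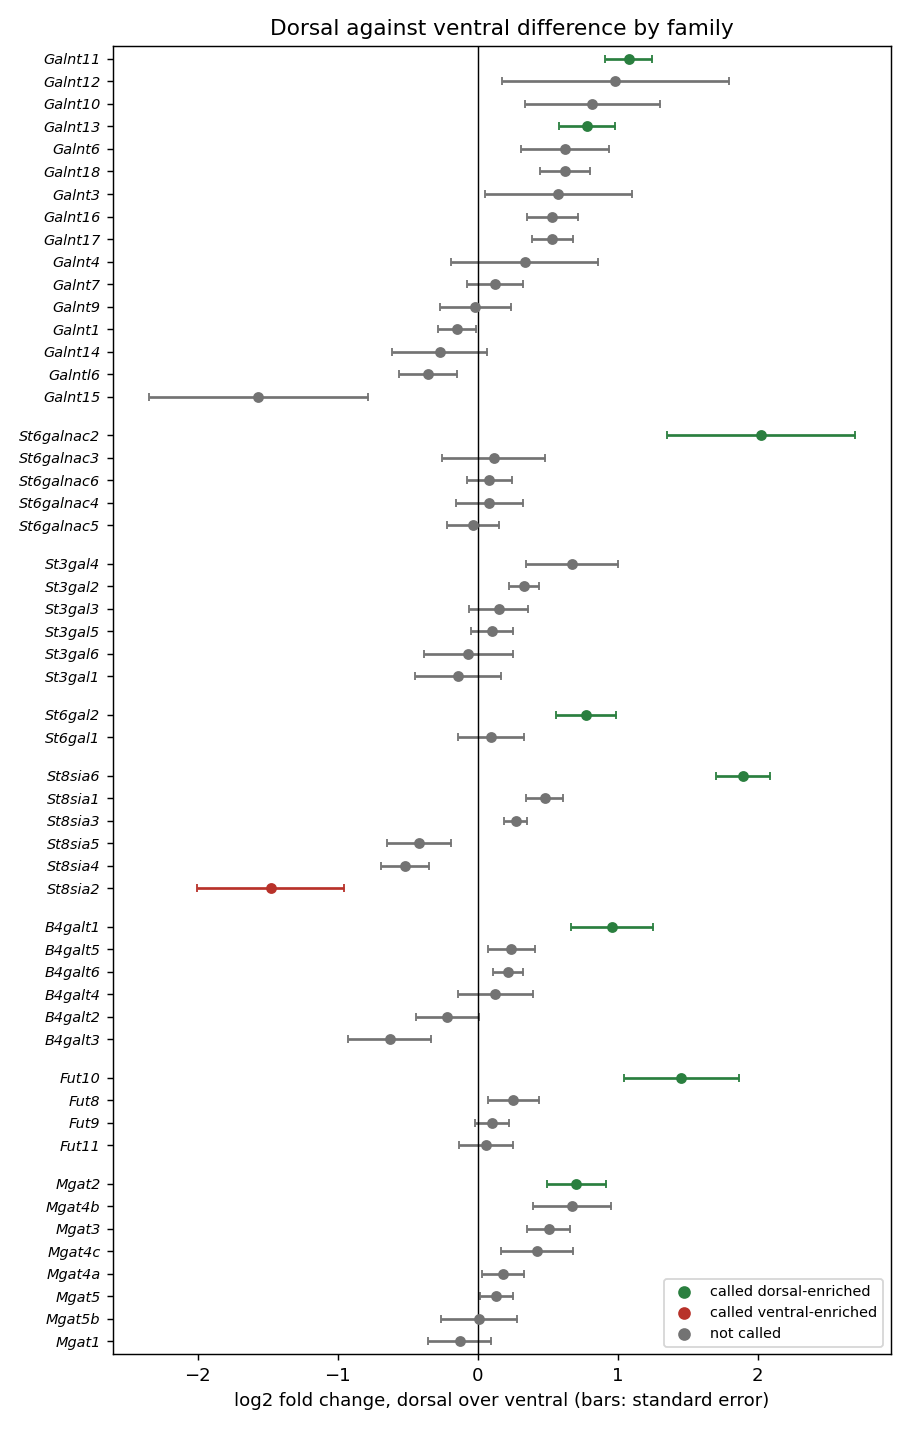
Log2 fold change of dorsal over ventral libraries for each tested member with its standard error, with members grouped by family and coloured where called. Positive values prevail in the Galnt and Mgat families, most of them without a call. The St8sia family holds both St8sia6 at 1.90 and St8sia2 at -1.48.

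Of the galactosyltransferases only B4galt1, which forms N-acetyllactosamine, was called. It had 7.51, 6.35, 4.29, 5.51 and 4.63 CPM in the dorsal pools and 1.72, 4.31, 3.37, 2.59 and 2.97 CPM in the ventral pools, where ventral library 2 just exceeded dorsal library 3. Its log2 fold change was 0.96 (SE 0.29, adjusted p = 0.0229), and the call was lost without ventral library 1, 4 or 5 and with the replicate block and GC and length correction together (adjusted p = 0.0574). B4galt6 had 297, 262, 204, 239 and 223 CPM in the dorsal group and 229, 203, 210, 203 and 204 CPM in the ventral group, with overlap and no call (0.22, SE 0.11, adjusted p = 0.126).

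Of the 8 Fut genes 4 were tested. Fut10 (chr8:31187331-31261738, plus strand) had 8.92, 5.51, 4.83, 9.53 and 6.82 CPM on the dorsal side and 4.76, 0.703, 0.169, 3.22 and 2.69 CPM on the ventral side. The groups did not overlap, and ventral libraries 2 and 3 held 8 and 2 read pairs. The log2 fold change was 1.46 (SE 0.41, adjusted p = 0.0161), and the call was lost without dorsal library 4 (adjusted p = 0.051). Fut9, the most abundant, had 243, 248, 225, 249 and 266 CPM in the dorsal pools and 258, 207, 282, 226 and 177 CPM in the ventral pools, a difference of 0.10 (95% interval -0.13 to 0.34) that became -1.09 with the GC and length correction and -0.32 (adjusted p = 0.021) with the correction among protein-coding genes. The longest transcript of Fut9 has a GC content of 35.0%. Fut8, which adds the core fucose of N-glycans, and Fut11 did not pass the test (adjusted p = 0.289 and 0.836).

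Mgat enzymes shape N-glycans, and 7 of the 8 tested were higher in the dorsal group, 1 of them called. That is 12.5% called, beside 11.4% of the tested protein-coding genes. Mgat2, which starts the second antenna of complex N-glycans, had 17.3, 12.1, 18.1, 12.9 and 18.6 CPM in the dorsal group and 10.9, 12.5, 10.5, 7.64 and 7.45 CPM in the ventral group. Ventral library 2 lay between dorsal libraries 2 and 4, and the other ventral libraries were below every dorsal one. The log2 fold change was 0.71 (SE 0.21, adjusted p = 0.0202), and the call was lost without dorsal library 5 or ventral library 4 or 5. It was also lost with the GC and length correction (0.56, adjusted p = 0.0629), though not with the correction among protein-coding genes (0.76, adjusted p = 0.0175). Mgat3 had 112, 64.3, 102, 94.8 and 99.9 CPM on the dorsal side and 75.8, 62.7, 49.8, 71.1 and 69.6 CPM on the ventral side, where dorsal library 2 fell inside the ventral range. It was higher in the dorsal group by 0.51 (SE 0.15, adjusted p = 0.0216), below the fold threshold. The branching enzymes Mgat4a and Mgat5 had adjusted p of 0.375 and 0.402. Mgat4b, at 9.48 and 6.04 CPM, did not pass the test (0.67, SE 0.28, adjusted p = 0.0762). It was called dorsal-enriched in 4 of 24 alternatives, among them each one with the GC and length correction.

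The 11 members that did not pass the filter were Galnt2, Galnt5, Galntl5, St6galnac1, the second St6galnac2 identifier, Fut1, Fut2, Fut4, Fut7, Mgat4d and Mgat4e. Galnt2 had at most 0.0599 CPM in any library, but 90.0% of its exonic length overlaps 2 other annotated genes, so that reads on it could have been left uncounted as ambiguous. Galntl5 and the second St6galnac2 identifier had no counts, and the highest of the others was Fut4, at up to 0.821 CPM in a ventral library.

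Genes that supply or extend these reactions were read from 9 lists of 68 genes, of which 56 were tested, with 9 called dorsal-enriched and 5 ventral-enriched, or 16.1% and 8.93%. Of all tested genes 15.7% and 9.85% were called, and of the tested protein-coding genes 11.4% and 10.3%. The calls named next are single-gene values and no result about the lists. In the sialic acid supply, Nans, the synthase of sialic acid phosphate, was lower in dorsal libraries, at 1.53 ± 0.307 against 5.04 ± 1.61 CPM (log2 fold change -1.73, SE 0.35, adjusted p = 0.00238), although 29.6% of its exons overlap other genes. Cmas, which activates sialic acid, was lower by adjusted p alone (-0.38, adjusted p = 0.0115). Of the 3 sialidases tested 1 was called, Neu4, at 10.2 and 4.22 CPM (1.31, adjusted p = 0.0141). Fuk, the fucose kinase, was higher in dorsal libraries, at 2.75 and 0.497 CPM (2.46, adjusted p = 0.00144). It exceeded 1 CPM in dorsal libraries alone, and its ventral libraries held 5 to 13 read pairs. The Golgi transporters Slc35a2 and Slc35a3, of UDP-galactose and UDP-N-acetylglucosamine, were higher (0.71 and 0.88), and Galk2, which phosphorylates GalNAc, and Gfpt2 were lower (-1.02 and -1.31).

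Of the 6 tested genes listed here under the extension of O-glycan cores, Gcnt1 and Gcnt2 were called dorsal-enriched and B3gnt3 ventral-enriched. The list does not state the reaction of each gene. B3gnt3, at 0.165 and 2.04 CPM, exceeded 1 CPM in ventral libraries alone and held 0 to 9 read pairs in the dorsal ones. C1galt1, which makes core 1, did not pass the test (adjusted p = 0.764). Of 7 other galactosyl- and GalNAc-transferases B3galt5 and B3galnt2 were called dorsal-enriched, the latter at 11.9 ± 0.973 against 4.37 ± 0.794 CPM (log2 fold change 1.40, SE 0.21, adjusted p = 0.000335). In N-glycan trimming Man1a was higher in dorsal libraries (0.83, adjusted p = 0.00084), 1 call of 8 tested, and in ganglioside synthesis and breakdown the galactosidase Glb1 was lower (-0.88, adjusted p = 0.0457), 1 of 7. The calls of Gcnt2 and Glb1 were each lost in 8 of the 10 analyses without 1 library, and that of Gfpt2 without dorsal library 3 or 5 or ventral library 4 or 5. The carriers of polysialic acid held no call, with Ncam1 at 147 and 133 CPM (adjusted p = 0.3).

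Because the share of read pairs outside genes separated the groups, the test was also run with that share as a covariate. With no overlap of the share between the groups, this fit cannot separate its effect from that of the region. A call lost in it may reflect lower power alone. Then 4 members were called dorsal-enriched, St8sia6, Fut10, Galnt11 and Galnt13, and none was called ventral-enriched. Of the 14 calls in the lists of other pathway genes only Slc35a3 and Man1a were kept, and that of Slc35a3 was lost with the GC and length correction (0.28, adjusted p = 0.245). In the whole series 834 dorsal and 339 ventral genes were called in that analysis, against 2636 and 1655.

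**Figure D4:**
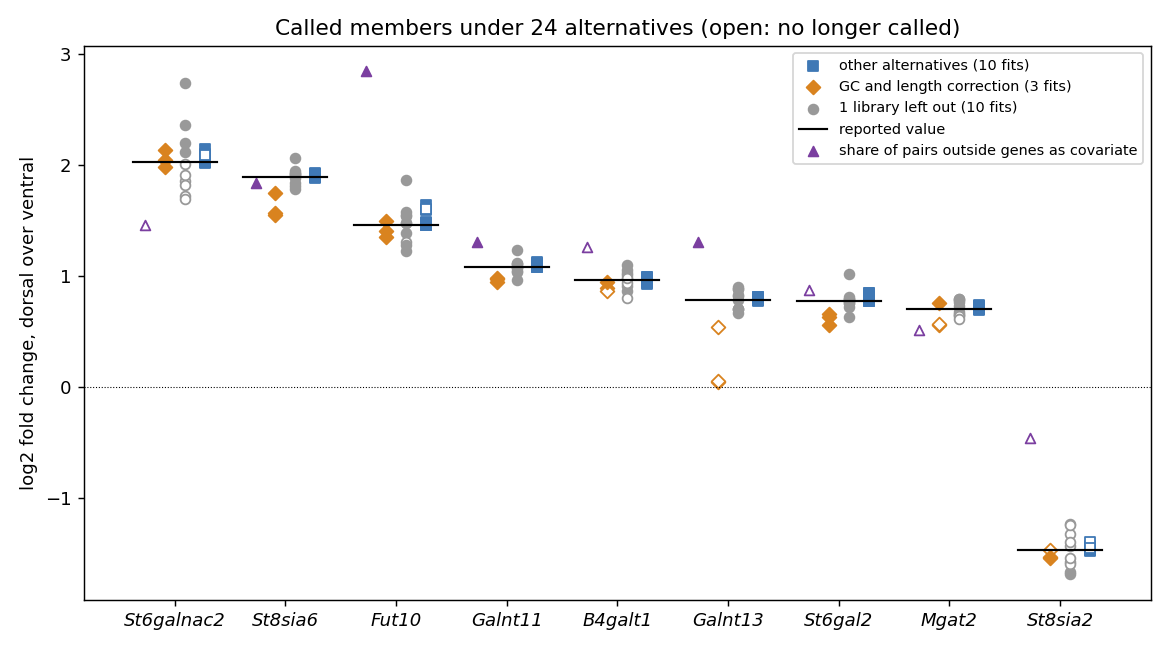
Log2 fold change of the 9 called members under 24 alternative analyses, with a line at the reported value and open symbols where the member was no longer called. St8sia6 and Galnt11 have no open symbol, Galnt13 drops towards 0 with the GC and length correction, and St8sia2 is open in 13 of 24.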

How the data were processed

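The authors precipitated EGFP-L10a ribosomes from 5 dorsal and 5 ventral pools, amplified 500 pg of RNA with the Ovation kit, and sequenced 50 bp paired ends. Per the submitters' notes, reads were aligned to GRCm38 with STAR 2.5.2b and counted with HTSeq 0.7.2. The deposited values are raw counts per Ensembl gene, without normalization. The strand setting is not given in the sources used here. Groups and replicate numbers came from the sample labels. GENCODE annotation of GRCm38 matched 54809 of 54838 identifiers.

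Genes that exceeded 1 CPM in 2 or more libraries were tested in R 4.3.3 with edgeR 4.0.16 (TMM, quasi-likelihood test, p adjusted by Benjamini-Hochberg across the 16806 genes tested). For a call the adjusted p had to be under 0.05 and the group means of CPM, with 1 added, had to differ by more than 0.58 on the log2 scale. The standard error was the size of the log2 fold change over the square root of F, and 95% intervals follow from it by the normal approximation. The dispersion setting of edgeR was not fixed in advance. A first run, with the dispersions of edgeR 3, called 2217 dorsal and 1408 ventral genes. Then 20 settings were compared on these counts. The one that gave the counts of an earlier re-analysis of these data, 2636 and 1655, was taken, which makes more calls than the first run. That re-analysis is not the published one, and the study itself reported fewer genes in both directions. Alternatives were other size factors and filters, DESeq2 1.42.0, other thresholds, protein-coding genes alone, a replicate block, GC and length offsets (mgcv 1.9.3) and each library left out. The covariate, the edgeR 3 dispersions and the correction among protein-coding genes were added after the data were seen.

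The fits were tested on simulated data. A first bar on the recovery of all changed genes was not met and was replaced after its value was seen by one on large changes of well-counted genes. False calls were above the nominal 5% in every fit, and above a bar of 10% for DESeq2 and for the replicate block, so that calls near the threshold are less certain than their adjusted p.

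Members and lists were chosen with earlier results of these data known. Values in every library are given for called members, Galnt13, the most abundant member of each family per kilobase and members whose groups do not overlap. The others are given by counts, means and ranges.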

Additional observations from a re-analysis of the deposited data

Results flagged for a closer look

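In 9 of 106 groups of 5 libraries, 1 library lay far from the other 4 in the CPM of a member (Dixon's test at the 95% level). Chance flags about 1 in 20 groups, or 5.3 here. The high values were Galnt7 in ventral library 1 at 19.4 CPM, Galnt10 in dorsal library 3 at 2.38 CPM and in ventral library 2 at 2.55 CPM, Galnt14 in dorsal library 2 at 33.6 CPM, Galntl6 in ventral library 3 at 51.1 CPM, B4galt6 in ventral library 1 at 229 CPM and Mgat4c in ventral library 3 at 44.6 CPM. The low values were St6galnac3 in dorsal library 2 at 7.52 CPM and B4galt5 in dorsal library 3 at 19.7 CPM. None of these members was called with all 10 libraries. Without dorsal library 2 Galnt14 was called ventral-enriched, with a log2 fold change of -0.84 in place of -0.27 (adjusted p = 0.0111). Without ventral library 2 Galnt10 was called dorsal-enriched, at 1.31 in place of 0.82 (adjusted p = 0.0257).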

How the results depend on the processing

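The count of dorsal-enriched members, 8, was 15 without the fold threshold and 4 with the percentage of pairs on no gene as covariate, and ranged from 6 to 10 without 1 library. With the GC and length correction the dorsal calls of Galnt13 and Mgat2 were lost, and Galnt18 and Mgat4b were called dorsal-enriched. The count of ventral-enriched members, 1, was 0 with DESeq2, with the replicate block, with that covariate and with the dispersions of edgeR 3. It was 2 without the fold threshold, 3 with the GC and length correction, 2 with the replicate block and that correction together, 2 with the correction among protein-coding genes, and 0 to 1 without 1 library. Of the 10 analyses without 1 library, St8sia2 was called in 2. St8sia4 was called ventral-enriched without dorsal library 1 or ventral library 5, Galnt14 without dorsal library 2, and Galnt15 without ventral library 1 or 2. The GC and length correction reversed Fut9, to -1.09, and to -1.08 with the replicate block, and the covariate turned Glb1 to 0.22. The cause was not tested. Of the 9 called members 4 were called in every analysis without 1 library, and 13 of the 44 uncalled members were called in some alternative. Dorsal and ventral pools came from the same set of mice, and whether equal replicate numbers share mice is not given in the sources used here. The correlation of same-numbered libraries, -0.03 to 0.07, gave no sign of pairing and does not show that the libraries are unpaired. With the replicate block as many dorsal-enriched members, 8, were called. Depth limits St8sia2, St6galnac2 and Fut10, which had 1 to 3 read pairs in at least 1 library.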
